A study of Mus musculus with 6 samples.

Results

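Atf6, Dnajb9 and Mthfd2 are 3 genes of the cell's responses to protein-folding and amino acid stress. They were followed across 3 clones derived from the mouse T lymphoma EL4. Members were all probe sets that carried the full name of 1 of these genes in either of the authors' deposited lists of differences. This gave 2 probe sets for Atf6, 1 for Dnajb9 and 1 for Mthfd2, which is 4 of the 45037 probe sets on the array and 3 of the 1517 genes with a deposited name. All 4 came from the authors' list of differences between V7 and WT2, which rests on the same arrays, and 0 from their list for C5 and V7. Further probe sets of these genes may be on the array without a deposited name, and they were not used here. Each member's difference between V7 and WT2 was therefore a condition of being named at all.

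RNA from each clone was hybridised to Affymetrix arrays as 2 aliquots, for 6 arrays. C5 is labelled resistant to the phorbol ester PMA, adherent to plastic and highly metastatic. V7 is labelled PMA-resistant, adherent and metastatic. WT2 is labelled PMA-sensitive, non-adherent and non-metastatic. All cells of the 3 clones had spent a night without serum and were otherwise untreated. Whether the night without serum itself moved stress genes, alike or differently in the clones, was not tested. Each label stands for 1 clone. Separate cultures are not stated for the 2 aliquots of a clone. Each p-value here thus rests on aliquot spread alone, which may be technical.

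The endoplasmic reticulum senses misfolded protein through ATF6, IRE1 and PERK. ATF6 is a membrane-anchored transcription factor that moves to the Golgi under stress, where proteases release its active fragment. IRE1 splices the mRNA of the transcription factor XBP1. Dnajb9, also called ERdj4, is an XBP1 target whose product is a J-domain co-chaperone of the chaperone BiP and helps to clear misfolded proteins. PERK and the amino acid sensor GCN2 both act through ATF4, which raises amino acid transporters, synthesis enzymes and Mthfd2. Mthfd2 is a mitochondrial folate enzyme that passes on one-carbon units taken from serine, and it is known for high levels in proliferating and tumour cells.

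Promoter sequences are shown for Dnajb9 and Mthfd2, the members that were lower together in C5 and V7. The RefSeq table (build GRCm38.p6) matched 2 of the 3 members. Each window holds 250 bases before and 50 after the annotated start. The Dnajb9 window is chr12:44210019-44210318 and the Mthfd2 window is chr6:83317555-83317854, both of genes on the minus strand and printed 5′ to 3′ along the gene. Capitals mark CCAAT and CCACG on either strand (ATTGG and CGTGG where the match is on the opposite strand).
Dnajb9: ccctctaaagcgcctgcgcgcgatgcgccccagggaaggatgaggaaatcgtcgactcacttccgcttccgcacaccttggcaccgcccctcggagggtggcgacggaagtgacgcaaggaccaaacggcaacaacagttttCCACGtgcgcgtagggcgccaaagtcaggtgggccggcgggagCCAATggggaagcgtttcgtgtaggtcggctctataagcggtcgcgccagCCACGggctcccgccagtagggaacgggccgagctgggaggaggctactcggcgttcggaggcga
Mthfd2: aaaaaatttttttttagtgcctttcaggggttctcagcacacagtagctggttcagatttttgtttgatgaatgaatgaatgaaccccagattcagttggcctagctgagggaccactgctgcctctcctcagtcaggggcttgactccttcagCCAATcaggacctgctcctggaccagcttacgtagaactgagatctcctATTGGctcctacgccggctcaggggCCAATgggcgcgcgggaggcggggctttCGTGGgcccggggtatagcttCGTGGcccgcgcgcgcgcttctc

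CCAAT and CCACG are the outer parts of the ER stress response element, in which they stand in that order 9 bases apart. The Dnajb9 window held 1 CCAAT, 65 bases before the start, and 2 CCACG, 108 and 15 bases before it, none overlapping. The Mthfd2 window held 3 CCAAT matches and 2 CCACG matches, the last 2 after the start and on the opposite strand. CCAAT occurred in 37.4% and CCACG in 32.8% of the 32851 windows of the table. The full element (CCAAT, 9 bases of any kind, CCACG, on either strand) was found in neither window and in 0.119% of all windows. The related element II (ATTGG, 1 base of any kind, CCACG), also in neither, occurred in 0.0365% of windows, and TGATGNAA, the letters searched for the C/EBP-ATF element that ATF4 binds, in 3.97% of windows and in neither of these.

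The deposited values are linear MAS5 signals, 1 per probe set and array, and every array had the same 2% trimmed mean of 125, so the authors had scaled them to it. Array medians were 17.0 to 17.8 in C5, 15.8 to 15.9 in V7 and 20.4 to 21.5 in WT2. A Gapdh 3′ to 5′ control ratio, a sign of RNA or labelling quality, was 0.829 to 1.15 in C5, 0.887 to 0.960 in V7 and 1.51 to 1.77 in WT2. For beta-actin this ratio was 1.87 to 2.91 in C5, 2.04 to 2.499 in V7 and 1.83 to 2.04 in WT2. WT2 thus had the highest medians and Gapdh ratios, but not the highest beta-actin ratios. The part of the medians and of either ratio in the differences from WT2 was not tested. Of 18 defining T cell genes 6 had a deposited name, and they went opposite ways. Trat1, whose product binds the receptor as an adaptor, rose, with 1293 to 1520 in C5, 1408 to 1470 in V7 and 1.21 to 6.34 in WT2 on its brightest probe set. The other 5 fell in V7, and 4 of them fell in C5. Of these, Cd3e, a chain of the T cell receptor complex, gave 901 to 1162 in C5, 917 to 1048 in V7 and 1867 to 2149 in WT2, and its C5 change of −0.97 was not called. Cd2 was at 7.25 or less in C5 and V7 and 795 to 887 in WT2. The brightest probe sets of all 6 summed to 2238 to 2745 in C5, 2545 to 2577 in V7 and 4075 to 4141 in WT2, and in C5 and V7 Trat1 was the largest part of that sum. No B cell, myeloid, epithelial or erythroid marker had a deposited name, so these types were not examined. The 1 named natural killer marker of 6, Gzma, gave 249 to 334 in C5, 108 to 130 in V7 and 24.97 to 38.3 in WT2. The 2 named fibroblast markers of 8 went opposite ways. Acta2 gave 41.3 to 52.5 in C5, 35.7 to 63.5 in V7 and 5589 to 6386 in WT2, and Pdgfra gave 47.2 to 48.2 in C5, 66.0 to 85.8 in V7 and 1.88 to 2.70 in WT2. Their sum was 89.4 to 99.7 in C5, 121 to 130 in V7 and 5591 to 6388 in WT2. The part of these markers in the results below was not tested.

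Signals were compared as log2(signal + 5.03), with limma's moderated test adjusted over all 27022 probe sets bright enough to be tested. A probe set was called, and is said to have risen or fallen, when it differed 2-fold or more with an adjusted p (Benjamini-Hochberg) under 0.05. In a whole-population measurement, fewer cells with a transcript and less of it per cell cannot be told apart.

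**Figure D1:**
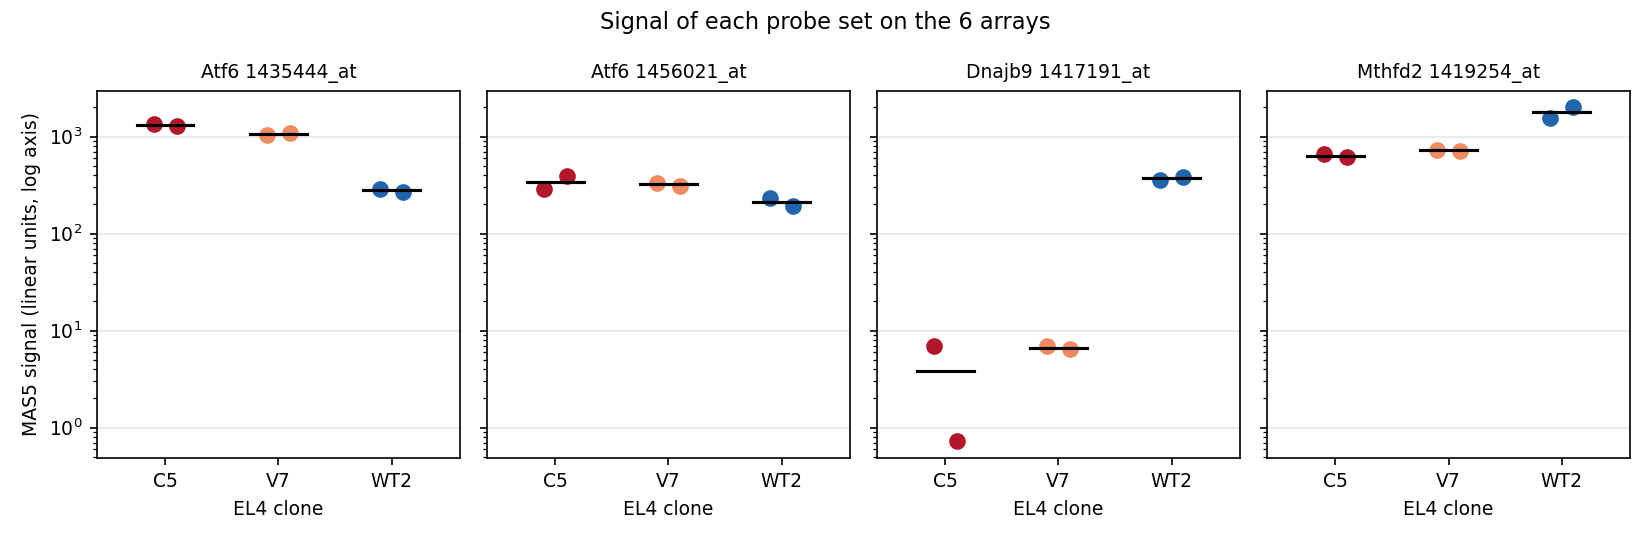
Signal of the 4 probe sets of Atf6, Dnajb9 and Mthfd2 on each array (points; linear MAS5 units on a log axis), with the mean of the 2 aliquots of each clone (black lines). Both Atf6 probe sets are lowest in WT2, and Dnajb9 and Mthfd2 are highest there; the C5 aliquots of Dnajb9 are 6.96 and 0.724.

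The brighter Atf6 probe set, 1435444_at, was well above WT2 in both PMA-resistant clones. Its signal was 1359 and 1278 in C5, 1052 and 1087 in V7, and 286 and 272 in WT2. The lowest C5 or V7 value was more than 3 times the highest WT2 value, and the aliquots of each clone lay close together. Means were 1318 ± 57.7 in C5, 1069 ± 24.98 in V7 and 279 ± 10.1 in WT2 (SD, n = 2 each). The log2 change was 2.22 for C5 over WT2 (SE 0.13, limma adjusted p = 2.40e-07), a 4.66-fold rise. For V7 over WT2 it was 1.92 (SE 0.13, limma adjusted p = 8.13e-07), a 3.79-fold rise.

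The second Atf6 probe set, 1456021_at, gave 292 and 397 in C5, 330 and 312 in V7, and 231 and 194 in WT2. Here too every C5 and V7 value was above both WT2 values, but the C5 aliquots spanned the V7 values. The log2 change was 0.67 for C5 over WT2 (95% interval 0.27 to 1.08, limma adjusted p = 0.0186) and 0.59 for V7 over WT2 (0.19 to 0.99, adjusted p = 0.0356), both short of 2-fold and not called. Leaving out single arrays moved these adjusted p values to as much as 0.158 and 0.200.

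The pair of Atf6 probe sets therefore gave the same direction and unequal sizes, with 95% intervals that do not overlap (1.95 to 2.497 against 0.27 to 1.08 for C5 over WT2, and 1.65 to 2.20 against 0.19 to 0.99 for V7 over WT2). Within each array, the log2 ratio of the brighter to the dimmer probe set, set to a mean of 0 in WT2, was 1.81 and 1.28 in C5, 1.27 and 1.39 in V7, and −0.09 and 0.09 in WT2. The ratio was thus shifted upwards on every array of both resistant clones, and the C5 aliquots differed more from each other than the V7 aliquots did. Which Atf6 transcripts or exons each probe set reads is not given in the sources used here.

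In the authors' deposited table, 1435444_at was 4.1-fold and 1456021_at 2.2-fold higher in V7, with deposited adjusted p of 0.0115 and 0.0130. The size for the brighter probe set was close to the 3.79-fold found here. For the dimmer one the authors' deposited table gave a larger size than the 1.51-fold found from the signals, and would put it past 2-fold. How the authors summarised the arrays for that table is not given in the sources used here.

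Dnajb9, the BiP co-chaperone, was bright in WT2 and at the bottom of the signal range in the other clones. Its signal was 6.96 and 0.724 in C5, 6.91 and 6.39 in V7, and 361 and 382 in WT2. Within its array, the probe set stood at percentile 31.01 and 2.25 in C5 and 31.98 and 29.97 in V7, against 88.6 and 89.2 in WT2. One C5 aliquot gave a signal almost equal to V7 and the other a far lower one, at a level where MAS5 signals carry little information. The probe set passed the filter on mean signal through WT2 alone, so a difference was a condition of its being tested.

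The log2 change of Dnajb9 was −5.50 for C5 over WT2 (SE 0.40, limma adjusted p = 1.68e-06) and −5.01 for V7 over WT2 (SE 0.40, adjusted p = 3.86e-06). These are 45.3-fold and 32.2-fold falls. Signals in C5 and V7 were near or below the added constant, so the size depends on it. With 1 added the log2 changes were −6.65 and −5.61, and with the median signal of 18.1 added they were −4.17 and −3.98, all called. In the authors' deposited table Dnajb9 was 31.07-fold lower in V7, with a log2 mean of 2.95 in V7 and 7.91 in WT2.

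Mthfd2, the mitochondrial folate enzyme, was lower in both resistant clones but stayed bright in all 3. Its signal was 656 and 616 in C5, 722 and 720 in V7, and 1552 and 2013 in WT2. The V7 aliquots were nearly equal, the WT2 aliquots were the most spread, and no C5 or V7 value came near a WT2 value. Means were 636 ± 28.2 in C5, 721 ± 1.55 in V7 and 1783 ± 326 in WT2 (SD, n = 2 each). The log2 change was −1.47 for C5 over WT2 (SE 0.14, limma adjusted p = 1.91e-05), a 2.77-fold fall, and −1.29 for V7 over WT2 (SE 0.14, adjusted p = 5.33e-05), a 2.44-fold fall.

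The fall of Mthfd2 was the nearest of the 3 to the 2-fold limit. Dividing each array by its median signal made it −0.89 for V7 over WT2, still with an adjusted p of 0.000564 but under 2-fold. That scaling moved the median log2 change of all tested probe sets for V7 over WT2 to 0.24, against −0.13 as deposited. Relative to the median, Mthfd2 changed by −1.14 with that scaling, −1.16 as deposited and −1.38 after quantile normalization. In the authors' deposited table Mthfd2 was 2.33-fold lower in V7, with an adjusted p of 0.0204.

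Of the 4 member probe sets, 1 rose (Atf6) and 2 fell (Dnajb9 and Mthfd2) in V7 against WT2, and the same 3 were called in the same directions in C5 against WT2. Over all tested probe sets, 12.5% were called in V7 against WT2 (5.29% higher and 7.23% lower) and 13.0% in C5 against WT2 (5.58% higher and 7.46% lower). Among the 1934 tested probe sets with a deposited gene name, which the authors had listed for a difference, the shares were 83.4% and 79.5%. The members' 3 of 4 is near these shares, and nothing particular to the members follows from the count. Both comparisons use the same WT2 arrays. No member was called by an equal-variance test of each probe set alone, which with 2 arrays a clone called 0 of the 27022 probe sets for V7 against WT2 (6587 at an unadjusted p below 0.05) and 1 for C5 against WT2. All 4 members had an unadjusted p below 0.05 in that test for V7 against WT2, and 3 of 4 for C5 against WT2.

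**Figure D2:**
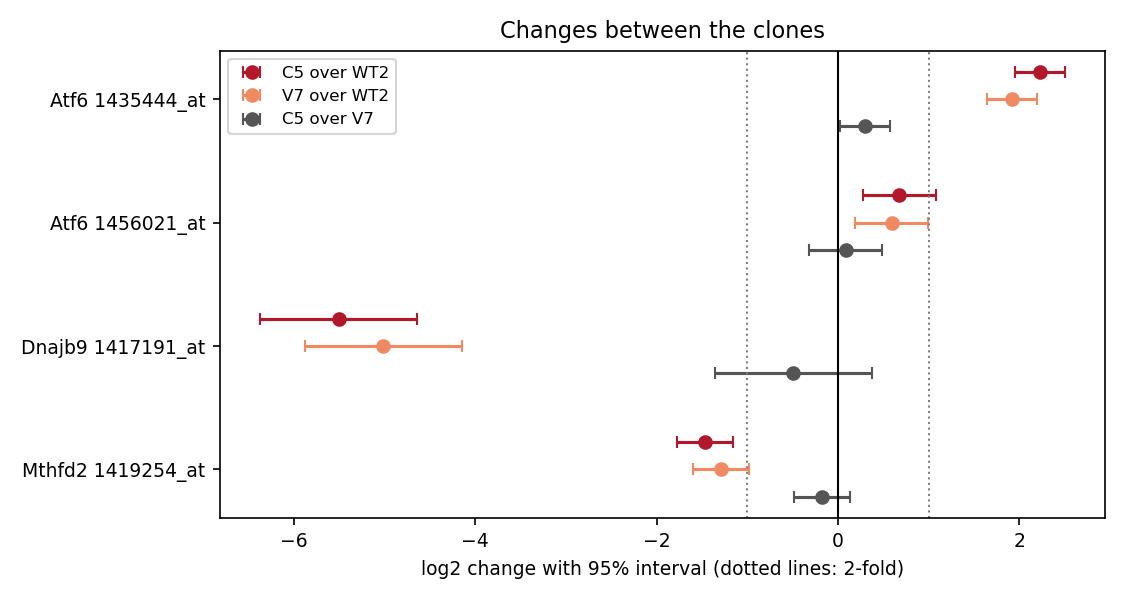
Log2 change of each member probe set for C5 over WT2, V7 over WT2 and C5 over V7 (points, limma estimates; bars, 95% intervals; dotted lines, 2-fold). The 2 comparisons with WT2 lie close together for each probe set, from −5.50 for Dnajb9 to 2.22 for Atf6, and the changes for C5 over V7 lie between −0.49 and 0.30.

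C5 and V7 differ in their metastasis label and share resistance and adhesion. None of the 4 member probe sets was called between them by limma, 1 of 4 had an unadjusted p below 0.05, and the equal-variance test gave the same counts. Over all tested probe sets 0.0999% were called, and 1.14% of those with a deposited name. The brighter Atf6 probe set was higher in both C5 aliquots than in either V7 aliquot, with a log2 change of 0.30 (95% interval 0.03 to 0.58, unadjusted p = 0.0350, limma adjusted p = 0.706). The dimmer one differed by 0.08 (−0.32 to 0.49), and its aliquots overlapped. Mthfd2 was lower in both C5 aliquots than in either V7 aliquot, by −0.18 (−0.49 to 0.13, limma adjusted p = 0.928). For Atf6 and Mthfd2 the intervals leave out a change of 2-fold in either direction.

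Dnajb9 was less well bounded. Its change for C5 over V7 was −0.49 (−1.36 to 0.37, limma adjusted p = 0.928), which does not leave out a 2-fold fall. Without the C5 aliquot with a signal of 0.724 it was 0.04, and without the other C5 aliquot −1.02. By mean level, Atf6 was highest in C5, then V7, then WT2 on both probe sets, and Mthfd2 was highest in WT2, then V7, then C5. In each of these orders C5 and V7 did not differ by the test used. Dnajb9 was highest in WT2, and its signals in C5 and V7 were too low and too overlapping to be ordered.

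Across the 6 arrays, the profiles of Dnajb9 and Mthfd2 correlated with r = 0.984 on the log2 scale, and those of the brighter Atf6 probe set and these genes with r = −0.988 each. The Atf6 probe sets correlated with each other at r = 0.892. With 3 clones of which 2 lie close together, these values describe mainly the distance between WT2 and the rest. They are not evidence of a relation between the genes.

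The named genes with the most similar profiles were taken by the smallest root mean square distance between log2 profiles, each centred on its mean over the 6 arrays. For Atf6 these were Solute carrier family 12, member 4, a potassium-chloride cotransporter (0.080), S-adenosylhomocysteine hydrolase-like 1 (0.091) and Cyclin T2, a subunit of a transcription elongation kinase (0.094). For Dnajb9 they were G kinase anchoring protein 1 (0.22), Contactin 3, a cell adhesion protein (0.25), and Orphan short chain dehydrogenase/reductase (0.34). All 3 had signals between 0.604 and 7.70 on every C5 and V7 array and between 217 and 419 in WT2. Like Dnajb9, they passed the filter on mean signal through WT2 alone. Their likeness within C5 and V7 rests on signals at which MAS5 carries little information. For Mthfd2 they were RAB10, member RAS oncogene family, a GTPase of vesicle transport (0.050), FERM domain containing 4A (0.063) and Polo-like kinase 4, which controls centriole duplication (0.074). The last has a probe set with probes shared between transcripts. The RAB10 signal was 415 and 357 in C5, 468 and 452 in V7, and 952 and 1241 in WT2.

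**Figure D3:**
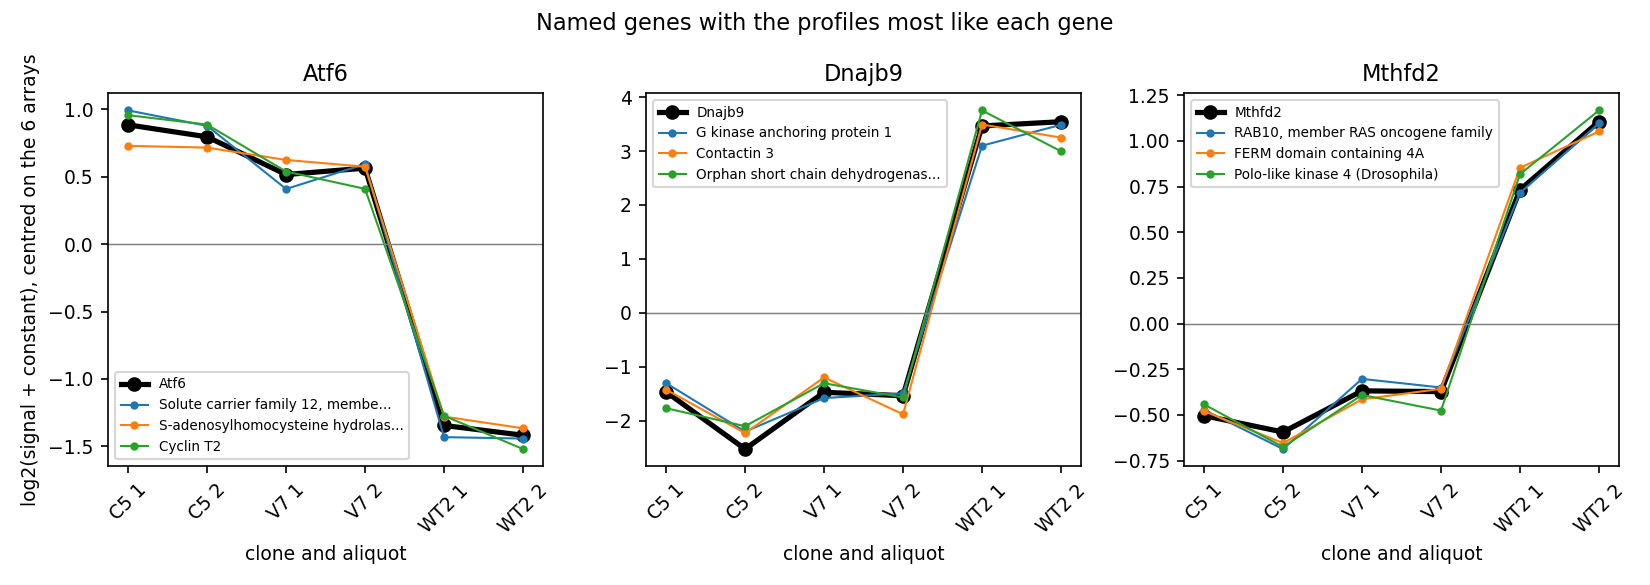
Log2 profiles over the 6 arrays, centred on their mean, of the leading probe set of Atf6, Dnajb9 and Mthfd2 (black) and of the 3 named genes nearest to each (colours). All lines step between V7 and WT2; root mean square distances from the black line run from 0.050 to 0.34.

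The other genes of the stress pathways were taken from 7 lists of 224 genes. Of these 20 had a deposited name, members included. Without the members, 7 of 17 rose, 6 fell and 4 were not called in V7 against WT2, and 9 rose, 6 fell and 2 were not called in C5 against WT2. Of all tested probe sets with a deposited name, 83.4% were called in V7 against WT2 and 79.5% in C5 against WT2. Over all tested probe sets the shares were 12.5% and 13.0%. The counts for the 17 genes are near the shares of named probe sets, and nothing particular to these genes follows from them. The median log2 change of the 17 genes was 0.77 for V7 over WT2, beside 0.82 for all named probe sets and −0.13 for all tested ones. For C5 over WT2 it was 1.02, beside 0.73 and −0.07. With each array divided by its median the split was 10 higher and 4 lower in V7, and 11 higher and 4 lower in C5. Over all tested probe sets that scaling raised the share of higher calls to 73.9% in V7 and 65.5% in C5, against 42.2% and 42.8% as deposited, and quantile normalization gave 52.7% in V7. As for the members, a deposited name already depended on a difference between these arrays.

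Among sensors and signal relays, 3 of 18 genes were named, and 2 besides Atf6 fell in both resistant clones. Creb3l1, a relative of ATF6 that is also anchored in the endoplasmic reticulum and cut in the Golgi, gave 27.7 and 22.5 in C5, 38.1 and 23.7 in V7, and 156 and 124 in WT2. Its log2 change was −2.26 for C5 over WT2 (limma adjusted p = 1.79e-04) and −2.03 for V7 over WT2 (4.08e-04). Map3k5, the kinase ASK1 that acts downstream of IRE1, fell on the 2 probe sets named for it, with log2 changes of −2.55 in C5 and −2.20 in V7 on the brighter and −1.98 and −1.52 on the other. So the named ATF6 relative moved opposite to Atf6.

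Folding enzymes and chaperones split. Of 35 genes 6 were named. Hyou1, a large chaperone that acts as exchange factor for BiP, gave 562 and 405 in C5, 390 and 364 in V7, and 75.0 and 57.8 in WT2. It had the largest rise of the 6, with a log2 change of 2.77 for C5 over WT2 (SE 0.20, limma adjusted p = 1.81e-06) and 2.43 for V7 over WT2 (SE 0.20, adjusted p = 5.46e-06). The disulfide isomerase Pdia5 rose by 2.01 in C5 and 1.74 in V7. Ero1l, the oxidase that recharges disulfide isomerases, gave 1660 and 1581 in C5, 1424 and 1384 in V7, and 3803 and 3724 in WT2, and fell, with log2 changes of −1.21 in C5 and −1.42 in V7. With arrays divided by their median the C5 change of Ero1l was −0.95, under 2-fold.

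Erp44, which retains Ero1 proteins in the endoplasmic reticulum, rose by 1.02 in C5, a call lost with the median signal added (0.91) or without WT2 aliquot 1 (0.94) or C5 aliquot 1 (0.91), and its change in V7 was 0.77 (limma adjusted p = 0.0140). With arrays divided by their median the V7 change was 1.15 and passed. The Pdia3 probe set, for a disulfide isomerase of glycoproteins, was dim at 15.6 to 45.6 on all arrays and was not called (0.92 in C5 and 0.60 in V7). Its C5 change passed after quantile normalization (1.12), with arrays divided by their median (1.14) or without WT2 aliquot 2 (1.18). The 2 folding genes with the lowest C5 and V7 levels relative to WT2 were thus Dnajb9 and Ero1l, while Hyou1 and Pdia5 moved the other way.

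Of 48 genes for the removal of misfolded proteins and for passage into or out of the endoplasmic reticulum, 4 were named. Edem3 and Man1b1, mannosidases that mark misfolded glycoproteins for degradation, both rose. Edem3 gave 1282 and 1204 in C5, 1069 and 1060 in V7, and 483 and 503 in WT2, with log2 changes of 1.32 and 1.10 over WT2. Man1b1 changed by 1.45 in C5 and 1.32 in V7. Sec62 and Sec63, partners at the translocation channel, did not move together. Sec62, on a probe set with probes shared between transcripts, fell (−1.13 in C5 and −1.20 in V7), and Sec63 rose by 1.12 in C5. The Sec63 change in V7 was 0.85 and not called, though it passed without WT2 aliquot 1 (1.16) or with arrays divided by their median (1.24). With arrays divided by their median the Sec62 changes were −0.86 and −0.81, under 2-fold, and the C5 call of Sec63 was lost without WT2 aliquot 2 (0.82).

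Of 31 genes that control the integrated stress response, 2 were named. Eif2b1, a subunit of the exchange factor that this response inhibits, gave 661 and 705 in C5, 695 and 620 in V7, and 276 and 225 in WT2, and rose by 1.44 in C5 and 1.38 in V7. Eif2ak2, the kinase PKR that responds to double-stranded RNA, fell on a dim probe set, with log2 changes of −1.55 in C5 and −1.46 in V7. Its V7 call was lost without WT2 aliquot 1 (limma adjusted p = 0.0543) or V7 aliquot 2 (0.0607), and its C5 call without C5 aliquot 1 (0.05005).

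Of 24 genes in the amino acid list, which also holds stress-induced genes such as Stc2, 2 were named, and both rose. Stc2, a secreted glycoprotein known to be induced through PERK and ATF4, gave 362 and 336 in C5, 358 and 376 in V7, and 20.0 and 20.4 in WT2 on its brightest probe set. Its log2 change was 3.81 for C5 over WT2 (SE 0.18, limma adjusted p = 5.60e-08) and 3.88 for V7 over WT2 (SE 0.18, adjusted p = 4.79e-08). The 2 other Stc2 probe sets rose by 2.40 to 4.86. The largest changes, 4.86 in C5 and 4.82 in V7, came from a probe set with WT2 signals of 2.06 and 5.46. These are near or below the added constant, so their size depends on it. That probe set passed the filter on mean signal through C5 and V7 alone. Gpt2, the mitochondrial alanine aminotransferase, rose by 1.61 in C5 and 1.13 in V7, and the V7 call was lost with the median signal added (0.97) or without WT2 aliquot 1 (0.91).

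Of 33 one-carbon genes 2 were named. Shmt1, the cytosolic enzyme that takes one-carbon units from serine, gave 407 and 425 in C5, 405 and 375 in V7, and 219 and 237 in WT2 on its brighter probe set. All C5 and V7 values were above WT2, but the changes of 0.85 and 0.76 were under 2-fold and not called, while a dimmer probe set rose by 1.21 and 1.29. With arrays divided by their median the brighter one passed 2-fold too (1.11 and 1.15). Mthfd2, which acts in mitochondria, was lower, as given above. Of 36 aminoacyl-tRNA synthetases 1 was named, Farsb, the beta subunit of phenylalanyl-tRNA synthetase. Its dim probe set gave 5.17 and 18.7 in C5, 19.7 and 53.6 in V7, and 88.2 and 132 in WT2. Its log2 change was −2.86 in C5 and −1.57 in V7, and the V7 call was lost under 8 of 16 alternatives, among them leaving out WT2 aliquot 2 (limma adjusted p = 0.168) or V7 aliquot 1 (0.262).

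**Figure D4:**
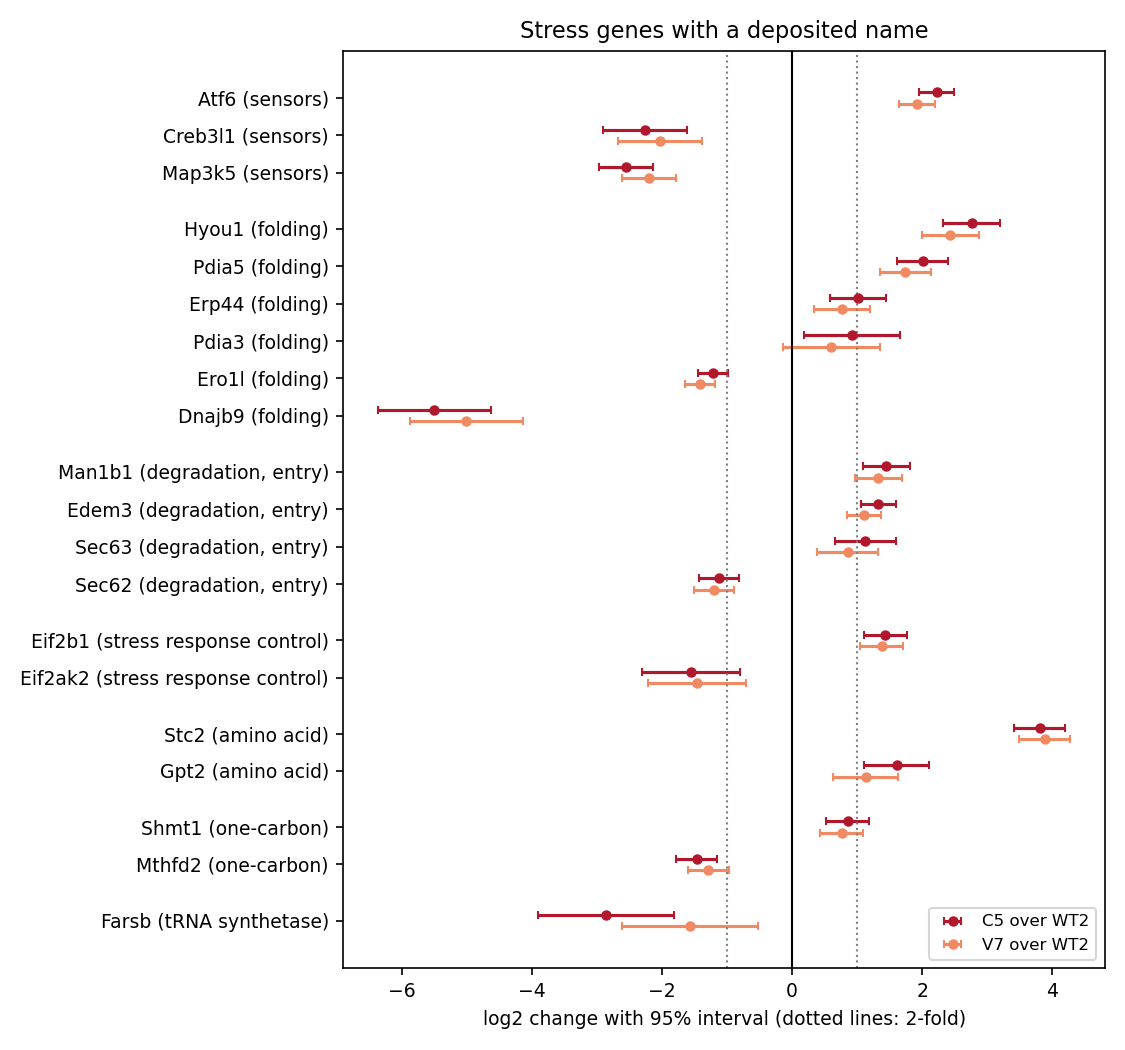
Log2 change over WT2 of the 20 stress genes with a deposited name, in C5 (dark red) and V7 (orange), grouped by role (points, limma estimates on the brightest probe set of a gene; bars, 95% intervals; dotted lines, 2-fold). Changes run from −5.50 for Dnajb9 to 3.88 for Stc2, and in every role with more than 1 gene except the amino acid list (Gpt2 and Stc2) some lie on either side of 0.

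Between C5 and V7 none of these 17 genes was called by limma, and 1 had an unadjusted p below 0.05. This was Farsb (log2 change −1.29, unadjusted p = 0.0202, limma adjusted p = 0.630). The equal-variance test also called 0 of 17, with 3 at an unadjusted p below 0.05. Over all 27022 tested probe sets limma called 27, with 1756 at an unadjusted p below 0.05. The equal-variance test called 0 of them, with 1955 at an unadjusted p below 0.05. Nothing particular to these genes follows from the absence of calls. The median change of the 17 genes for C5 over V7 was 0.13, beside 0.02 over all tested probe sets.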

How the data were processed

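Transcript levels were measured on 6 Affymetrix arrays, 2 aliquots from each of 3 EL4 clones. The deposited value table holds linear signal intensities made with MAS5, per the submitters' processing notes, with no version stated. Of its 45101 probe sets 64 array controls were left out. The authors' deposited lists give log2 means, a fold ratio and p-values (raw and adjusted) of a t-test, per the file headers. They supplied gene names and a comparison of sizes.

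Signals were analysed as log2(signal + 5.03), where the constant is their lower quartile. The 27022 probe sets whose mean exceeded 11.7, the 40th percentile, entered the test. With limma 3.58.1 in R 4.3.3, a model of 1 mean per clone took in the 6 arrays, with a variance trend (3 residual and 8.47 prior degrees of freedom). Tests were two-sided. The number of arrays limits the precision. The fit was tested on simulated data. Python 3.11.15, pandas 2.3.3, numpy 2.4.6 and matplotlib 3.10.9 made tables and figures.

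Symbols for 29 list genes were matched by hand from deposited names. Of these 9 had a RefSeq accession, and all 9 gave the same symbol. Every gene of a stress list with a deposited name is described, with its brightest probe set leading, and for each member the 3 nearest named profiles. The members and lists were chosen with earlier results of these data known.

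Alternatives were another constant, filter, scaling, variance model, sample choice or test, an aliquot term, and leaving out each array.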

Additional observations from a re-analysis of the deposited data

How the results depend on the processing

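Each comparison was refitted under 16 alternatives. The 3 calls among the members for V7 against WT2 and for C5 against WT2 were kept in count and direction under 14 and 15 of them. Leaving out any single array gave 3 for both, and the aliquot number as a block also gave 3 for both. Dividing arrays by their median left 2 for V7 against WT2. The equal-variance test of each probe set alone left 0 for either, with 2 arrays a clone and no pooling of variances. For C5 against V7 the count was 0 under all 16. Over all 27022 tested probe sets the fit used above called 3385 for V7 against WT2 and 3524 for C5 against WT2. Division by the median gave 4154 and 3819, the block 3267 and 3437, and the equal-variance test 0 and 1. Nothing particular to the members follows from their counts. Aliquot numbers did not pair the samples. Deviations of equal numbers correlated at −0.04 (WT2 and V7), 0.0032 (WT2 and C5) and 0.04 (V7 and C5), so the block is only a number.

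The brighter Atf6 probe set ranged over 1.87 to 2.31 for V7 over WT2 and 2.17 to 2.48 for C5 over WT2, Mthfd2 over −1.48 to −0.89 and −1.65 to −1.20, and Dnajb9 over −5.61 to −3.98 and −6.65 to −4.17.

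Signs turned only in uncalled changes for C5 over V7, and the cause was not tested. With arrays divided by their median these were the dimmer Atf6 probe set (−0.047), Man1b1 (−0.0020), Sec62 (−0.057), Eif2b1 (−0.075) and Shmt1 (−0.038). That scaling moved the median C5 over V7 change of all tested probe sets from 0.017 to −0.107. Leaving out single arrays of the clone named gave −0.14 and 0.30 for the dimmer Atf6 probe set, −1.02 and 0.038 for Dnajb9 and −0.36 and 0.19 for Eif2ak2 (C5), and −0.52 and 0.064 for Creb3l1 and −0.025 and 0.14 for Eif2b1 (V7).

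The background of 27 calls for C5 against V7 ran from 0 by the equal-variance test to 72 with only these clones in the fit (4 without the variance trend, 5 without V7 aliquot 1 or 2, 6 and 7 without C5 aliquot 1 and 2, 70 without WT2 aliquot 1 or 2, 55 with the median signal added, 44 with arrays divided by their median, 15 with the block).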
